A study of Caenorhabditis elegans with 20 samples.

Results

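The cytosolic ribosomal protein genes of Caenorhabditis elegans were described here as the rows of the gene table whose name starts with rpl- (large subunit) or rps- (small subunit). These were 70 of 28301 rows, 39 rpl and 31 rps genes. After a filter on low counts 69 of the 70 were tested among 13795 genes; rpl-42, with 0 to 14 counts per library, was not. RNA came from whole animals at the L4 larval stage, grown in liquid culture. The 4 groups came from crossing genotype (wild type, strain N2 per the table's column names, or nhr-131) with treatment (DMSO or F17). Every group held 5 libraries, called a to e after the letters in the table, which the sample labels do not tie to replicate numbers. F17, a compound the labels name by this code alone, was given at 2.5 µM, and DMSO, its control, at 0.1%, each for the last 4 h before harvest. The genotype nhr131 is a mutant of nhr-131, which encodes a nuclear hormone receptor; the labels do not give the allele.

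The ribosome is built from ribosomal RNA and one copy of nearly every ribosomal protein, so cells make these proteins in near equal amounts and in very large numbers. Their genes are among the most highly transcribed of any cell, and in C. elegans growing larvae and the germline have a high demand for them. Several of the genes exist as a pair of paralogs. Places of single proteins in the ribosome, where given here, are known from the ribosomes of yeast and human.

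Total counts per library ran from 12836432 to 26908383, of which ribosomal RNA genes took 2.24% to 27.5%. The nhr-131 transcript had 77 to 196 counts in each wild-type library and 0 to 4 in each nhr-131 library. Libraries stood apart in 2 ways that touch the ribosomal protein genes. Library a of wild type with F17 and library a of nhr-131 with DMSO were the highest in these genes. In 6 libraries (a and c of the DMSO-treated wild type, a and d of the F17-treated wild type, and c of each nhr-131 group) the 7 genes switched on at the adult stage, vit-1 to vit-6 and col-19, summed to 12.3 to 98.7 CPM (counts scaled to library size with edgeR's TMM factors), against 407 to 3938 CPM in the other 14. Library a of wild type with F17 is in both sets. Results are given with and without each set where they turn on it. The titles call the libraries of a group biological replicates, and p-values measure the spread between them. The library kit selected polyadenylated RNA, and the 5 comparisons below share libraries, so their values are not independent of each other.

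The ribosomal protein genes held a large part of each library. Of the counts outside ribosomal RNA genes, they took 9.69%, 9.68%, 9.56%, 9.20% and 9.75% in libraries a to e of wild type with DMSO. With F17 the wild-type shares were 13.8%, 9.51%, 9.28%, 10.1% and 8.95%. In nhr-131 with DMSO they were 12.4%, 8.80%, 9.67%, 8.47% and 9.01%, and in nhr-131 with F17 8.16%, 8.56%, 9.82%, 9.24% and 9.36%. The groups overlapped, with means of 9.58% ± 0.223, 10.3% ± 1.98, 9.67% ± 1.59 and 9.03% ± 0.663 (SD, n = 5) in the same order. As shares of all counts, ribosomal RNA included, the means were 8.33% ± 0.689, 9.19% ± 0.943, 8.45% ± 1.42 and 8.08% ± 1.19. The libraries a named above lay above the other 18 libraries, which ranged from 8.16% to 10.1%. In whole animals, fewer cells of a type and less RNA per cell cannot be told apart.

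**Figure D1:**
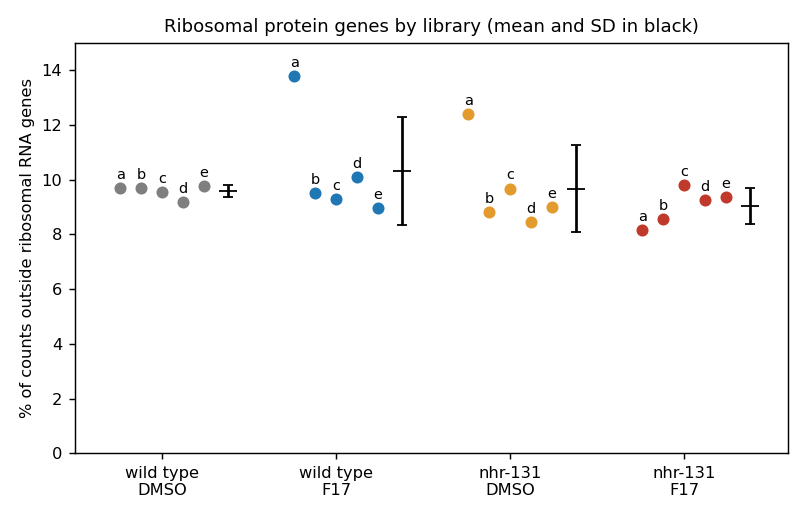
Each point is the share of the counts outside ribosomal RNA genes held by the 70 ribosomal protein genes in a library, in percent, with letters a to e naming the libraries of each of the 4 groups; the black mark is the group mean and its bar the SD (n = 5). The points at 13.8% (wild type with F17, a) and 12.4% (nhr-131 with DMSO, a) stand above the range of 8.16% to 10.1% that holds the other 18.

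Both subunits held similar amounts. Over the 70 genes CPM summed to between 68498.5 (nhr-131 with F17, a) and 136529 (nhr-131 with DMSO, a), with a median of 80376.7. Large-subunit genes summed to 1.03 to 1.11 times the small-subunit genes in every library.

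Levels per exon length were high and spread over a wide range. The median tested ribosomal protein gene had 1781 CPM per kilobase of exon (quartiles 1237 and 2692), against 7.15 for the other tested protein-coding genes, and 67 of the 68 tested genes with a known length lay in the highest 5% of tested protein-coding genes. At the top was rps-8, a small-subunit gene, with 4198 ± 745 CPM per kilobase (SD over 20 libraries). It was followed by rps-0, whose protein is known in human as the laminin receptor RPSA, with 3807 ± 697. rpl-17 (3522), rpl-7 (3384) and rps-14 (3315) came next, and rps-1 had 3305 ± 452. rpl-3 and rpl-4, whose proteins reach toward the peptidyl transferase centre and the exit tunnel, had 3209 ± 615 and 3145 ± 488 CPM per kilobase. In CPM without length rpl-3, rpl-4, rps-0, rps-8 and rps-1 were the highest 5. At the other end stood rpl-42 with 0.337 ± 0.268, where 3 counts in the smallest library equal 0.282 CPM before division by length, and rpl-24.2 with 63.6 ± 10.7. Low levels were also found for rpl-37 (245 ± 71.6), rpl-11.1 (278 ± 152), rpl-39 (511 ± 370) and rps-29 (523 ± 284). Among the tested genes with a length the highest mean was 66.0 times the lowest. That lowest gene was rpl-24.2, the counterpart of a human factor of large-subunit assembly, and the next was rpl-37 at 245.

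The genes are short and simple in structure. In the Ensembl annotation of assembly WBcel235, used for gene structure only, 69 of the 70 names were found and rpl-41 was not. Their median exon length was 530 nt (236 to 1456), against 1434 nt for the other tested protein-coding genes, and they had a median of 3 exons against 6. A small nucleolar RNA gene, of the class that guides the modification of ribosomal RNA, lay within 12 of the 69 (17.4%) and within 119 of the 11764 other tested protein-coding genes (1.01%). The 12 hosts were rpl-2, rpl-4, rpl-6, rpl-7, rpl-7A, rpl-24.1, rpl-26, rps-4, rps-12, rps-13, rps-23 and rps-29, and together they held 17 such genes. By chromosome, 21 lay on I, 8 on II, 16 on III, 14 on IV, 8 on V and 2 on X. The X thus held 2.90% of them, against 14.6% of all tested genes with a known chromosome. Both genes on X, rpl-11.2 and rpl-25.1, are members of a pair whose other copy lies on an autosome.

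The first comparison asked whether F17 changed these genes in wild type. No ribosomal protein gene passed the test: edgeR's quasi-likelihood test called 0 of 69, at an adjusted p under 0.05 over all 13795 genes, where 0.928% of all genes were called. At an unadjusted p under 0.05 it was also 0 of 69, against 7.6% of all genes, and the Wald test of DESeq2 and limma-voom called 0 as well. For 59 of the 69 the 95% interval of the log2 fold change lay within 2-fold either way, which held for 57.9% of all genes. Most of all genes have far lower levels, and the median SE was 0.28 for all genes against 0.19 for these. This limit applies to the interval shares of the other comparisons too. The median log2 fold change was 0.087 (all genes -0.011), and it was positive for 55 of 69 (48.3% of all genes).

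The estimates farthest from 0 in wild type belonged to genes of short proteins and to a paralog. rpl-39, for a small protein at the wall of the exit tunnel, had 116, 165, 61.0, 76.2 and 46.3 CPM in libraries a to e with DMSO and 378, 96.7, 153, 43.1 and 70.4 CPM with F17. Only library a with F17 lay above the DMSO range, and library d lay below it. Its log2 fold change was 0.67 (SE 0.58, adjusted p = 0.884). rps-28, a small-subunit gene near the mRNA exit, had 86.0 to 189 CPM with DMSO and 424, 147, 165, 75.7 and 86.7 CPM with F17, and was estimated at 0.50 (log2 fold change, SE 0.46, adjusted p = 0.89). Estimates for rpl-29 (0.47, SE 0.41) and rps-21 (0.47, SE 0.40) were similar, with the same library highest. rpl-11.1, for a protein that carries 5S RNA into the large subunit, had 255, 86.7, 321.2, 103 and 98.2 CPM with DMSO and 423, 252, 169, 338 and 134 CPM with F17 (0.61, SE 0.42, adjusted p = 0.829). Its groups overlapped, but library b with DMSO was the lowest of the 10.

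The lowest estimates in wild type were smaller. rpl-24.2 had 38.5, 34.0, 39.8, 39.6 and 35.4 CPM with DMSO and 33.3, 28.3, 33.1, 37.7 and 26.8 CPM with F17, and its log2 fold change was -0.24 (SE 0.14, adjusted p = 0.776). Of the F17 libraries only d lay within the DMSO range. rpl-37 (-0.081, SE 0.23), rps-30 (-0.079, SE 0.17), whose product begins as a fusion to a ubiquitin-like protein, rpl-35 (-0.078, SE 0.13) and rps-13 (-0.067, SE 0.15) were close to 0. Without library a of wild type with F17 and library a of nhr-131 with DMSO, the median log2 fold change in wild type was -0.085, positive for 2 of 69 (42.8% of all genes), and rpl-39 stood at -0.053 and rps-28 at -0.12.

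The second comparison asked the same in nhr-131. edgeR called 0 of 69 here too, where 0.478% of all genes were called. At an unadjusted p under 0.05 it was 0 of 69 against 3.07% of all genes, and DESeq2 and limma-voom called 0. The median log2 fold change was -0.17 (all genes -0.0092) and positive for 2 of 69 (48% of all genes), and the 95% interval lay within 2-fold for 61 of 69 (60.7% of all genes).

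Small-subunit genes had the lowest estimates in nhr-131, and for each of them library a with DMSO was the highest of the 10. rps-27, for a zinc-binding protein, had 1094, 434, 388, 323 and 343 CPM in libraries a to e with DMSO and 368, 450, 355, 442 and 418 CPM with F17, and its log2 fold change was -0.34 (SE 0.32, adjusted p = 1). Library a with DMSO lay far above the other 9, which overlapped. rps-14, for a platform protein, showed 3530, 1537, 1299, 1303 and 1512 CPM with DMSO and 1295 to 1656 CPM with F17 (-0.32, SE 0.25), again with library a far above the rest. rps-21 (-0.34, SE 0.40), rps-29 (-0.34, SE 0.39) and rps-16 (-0.33, SE 0.23) completed the lowest 5. The highest were rpl-37 at 0.30 (SE 0.23) and rpl-24.2 at 0.10 (SE 0.14), then rpl-29 (-0.021), rps-1 (-0.057) and rps-24 (-0.061). Without the libraries a, rps-27 stood at 0.14 and rps-14 at 0.067, and the median became 0.054, positive for 57 of 69 (50.4% of all genes).

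For 0 of 69 ribosomal protein genes did the libraries of both groups lie fully apart, either for F17 in wild type (2.36% of all genes), for F17 in nhr-131 (0.877%), for genotype in DMSO (0.877%) or for genotype in F17 (3.86%).

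The difference between the effects of F17 in nhr-131 and in wild type was tested directly. edgeR called 0 of 69, against 0.246% of all genes; at an unadjusted p under 0.05 it was 0 of 69 against 3.2%, and DESeq2 and limma-voom called 0. The median difference was -0.27 (all genes -0.019) and positive for 2 of 69 (47.7% of all genes), and the interval lay within 2-fold for 43 of 69 (44.8% of all genes). The lowest were rpl-39 (-0.82, SE 0.82), rps-21 (-0.81, SE 0.56), rps-29 (-0.79, SE 0.55), rps-28 (-0.75, SE 0.65) and rpl-11.1 (-0.69, SE 0.60). Only rpl-37 (0.38, SE 0.32) and rpl-24.2 (0.34, SE 0.19) were positive, and rpl-35 (-0.0050), rpl-2 (-0.026) and rps-13 (-0.031) lay nearest to 0 from below. Without the libraries a the median difference turned to 0.15, positive for 68 of 69 (55% of all genes). With only that of wild type with F17 left out it was -0.10, and with only that of nhr-131 with DMSO left out -0.046.

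Genotype was compared within each treatment. In DMSO, edgeR called 0 of 69 for nhr-131 against wild type, where 0.029% of all genes were called. At an unadjusted p under 0.05 it was 0 of 69 against 4.17%, and DESeq2 and limma-voom called 0. The median was 0.12 (all genes -0.0047), positive for 63 of 69 (49.2% of all genes), with the interval within 2-fold for 60 of 69 (58.8%). The highest were rpl-39 (0.45, SE 0.58), rps-28 (0.39, SE 0.46), rpl-29 (0.33, SE 0.41), rps-21 (0.32, SE 0.40) and rpl-43 (0.29, SE 0.35). The lowest were rpl-11.1 (-0.20, SE 0.42), rpl-21 (-0.023), rps-30 (-0.019), rpl-35 (-0.018) and rps-13 (-0.017). Without the libraries a the median was -0.14 and positive for 0 of 69 (47.3% of all genes).

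In F17, edgeR again called 0 of 69 for nhr-131 against wild type, where 1.28% of all genes were called, and DESeq2 and limma-voom called 0. At an unadjusted p under 0.05 it was 2 of 69, rpl-24.2 and rpl-11.1, against 15% of all genes. The median was -0.15 (all genes -0.031), positive for 3 of 69 (46.7% of all genes), with the interval within 2-fold for 59 of 69 (52.7%). rpl-24.2 had 33.3, 28.3, 33.1, 37.7 and 26.8 CPM in wild type and 40.1, 37.1, 50.4, 38.3 and 38.9 CPM in nhr-131. The groups overlapped only between library d of wild type and library b of nhr-131. Its log2 fold change was 0.36 (SE 0.14, adjusted p = 0.217).

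In the same comparison rpl-11.1 had 423, 252, 169, 338 and 134 CPM in wild type and 116, 95.7, 278, 94.1 and 123 CPM in nhr-131 (-0.90, SE 0.42, adjusted p = 0.331). All nhr-131 libraries but c lay below the wild-type range. rpl-37 (0.47, SE 0.23, adjusted p = 0.342) and rpl-2 (0.023) were the other positive estimates, and rps-29 (-0.52, SE 0.39), rps-21 (-0.49, SE 0.40), rpl-30 (-0.38, SE 0.32) and rpl-43 (-0.38, SE 0.35) followed rpl-11.1 at the low end. rps-19 (-0.018) and rps-15 (-0.017) were near 0. Without the libraries a the median was 0.024 and positive for 45 of 69 (50.9% of all genes). In this fit edgeR called 0 of 69 in each of the 5 comparisons, where 0.973% (F17 in wild type), 0.451% (F17 in nhr-131), 0.186% (difference), 0.0286% (genotype in DMSO) and 0.837% (genotype in F17) of all genes were called. Leaving out library a of wild type with F17 alone moved the median for F17 in wild type to -0.064 and for genotype in F17 to -0.00069. Leaving out library a of nhr-131 with DMSO alone moved that for F17 in nhr-131 to 0.046 and for genotype in DMSO to -0.13.

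**Figure D2:**
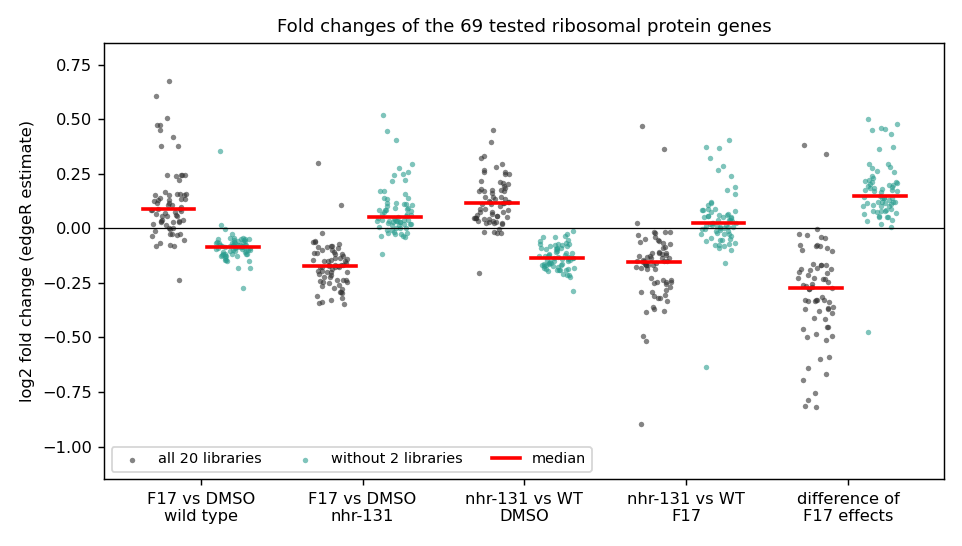
Each point is the log2 fold change (edgeR estimate) of 1 of the 69 tested ribosomal protein genes in the 5 comparisons, from all 20 libraries (dark) and without library a of wild type with F17 and library a of nhr-131 with DMSO (green), with the median in red. The medians move from 0.087, -0.17, 0.12, -0.15 and -0.27 to -0.085, 0.054, -0.14, 0.024 and 0.15, and no point passed the test in either fit.

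The ribosomal protein genes rose and fell together from library to library within a group. A single component held 71.6% of their variance within groups, and a second 17.8%, so the counts of positive estimates above do not rest on 69 independent values. Of the 69, 65 had their highest level of all 20 libraries in 1 of the libraries a named above, 53 in that of nhr-131 with DMSO and 12 in that of wild type with F17. For 55 of the 69 both of these lay above the other 18. The lowest library was most often a of nhr-131 with F17 (27 genes), d of nhr-131 with DMSO (16) or c of wild type with DMSO (13). The highest library was 2.28 times the lowest for the median gene, 8.75 times at most (rpl-39) and 1.58 times at least (rpl-35).

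The high libraries a, of wild type with F17 and of nhr-131 with DMSO, differed in most marker lists and were closer in body muscle, neurons and sperm. The 10 germline marker genes summed to 980 CPM in the first and 112 CPM in the second, and the 7 adult-onset genes to 37.6 and 1517 CPM. Markers of the pharynx summed to 865 and 107 CPM, of hypodermis to 1645 and 6587, of oocytes to 161 and 40.8 and of intestine to 11468 and 20013. Markers of body muscle summed to 14768 and 15310 CPM, of neurons to 477 and 497 CPM and of sperm to 198 and 271 CPM. Ribosomal RNA genes took 22.5% and 18.2% of their counts, within the range of the other libraries, and their totals of 14403626 and 14298430 counts were near the low end. The part of any of these in the high levels was not tested.

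**Figure D3:**
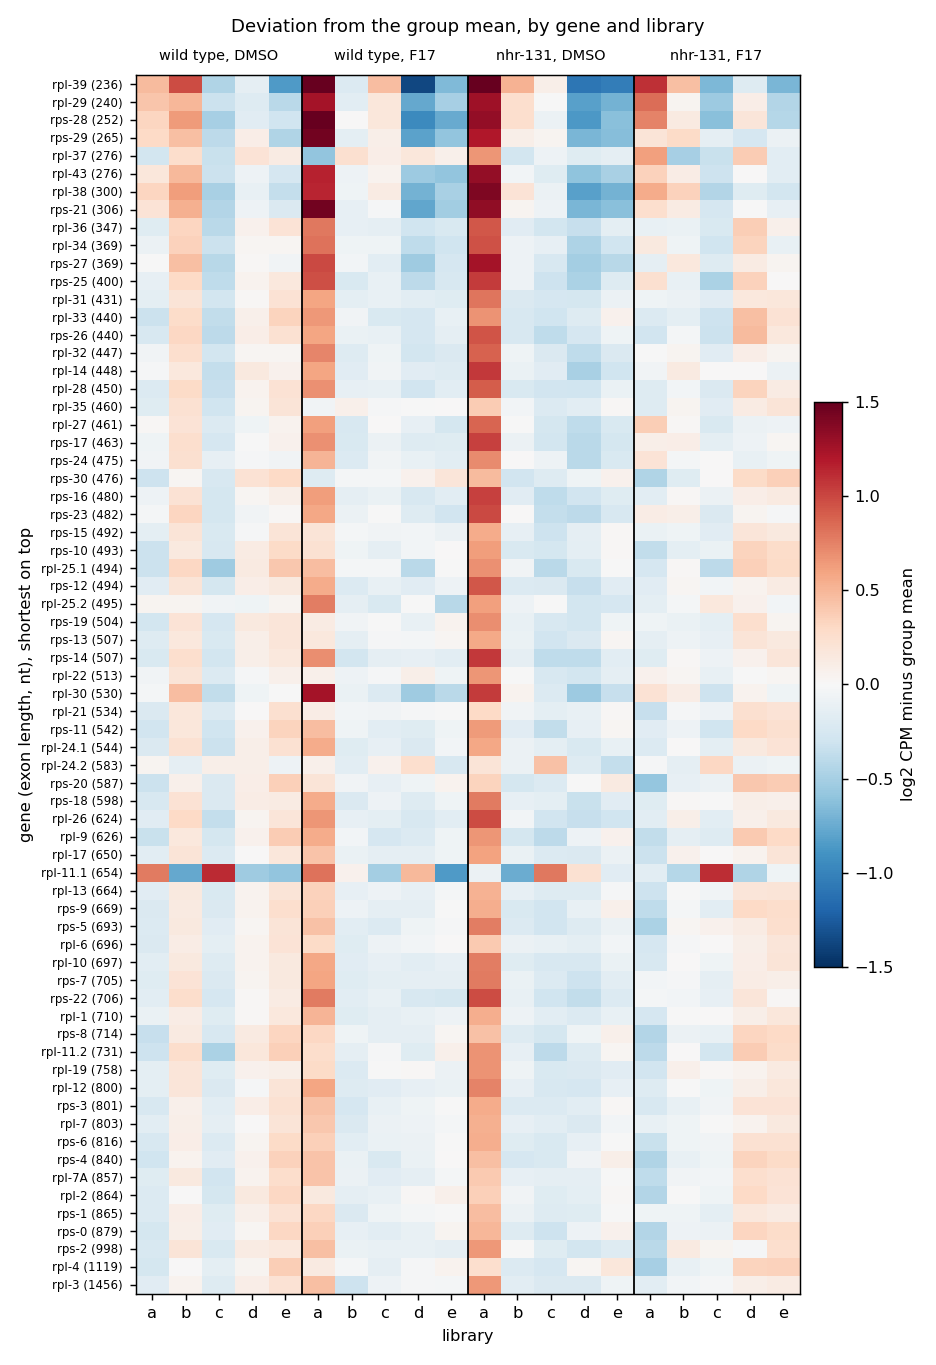
Each row is a ribosomal protein gene with a known exon length, the shortest on top, and each column a library of the 4 groups; the colour is the log2 CPM minus the mean of its group, red above and blue below. The columns a of wild type with F17 and a of nhr-131 with DMSO are red over nearly all rows and darkest for the shortest genes, while rpl-11.1 is high in the first of these (0.81) and not in the second (-0.088).

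The spread within groups depended on which gene was looked at. The SD of log2 CPM within groups ran from 0.19 to 0.97 with a median of 0.30, against 0.25 for 1789 other protein-coding genes whose mean log2 CPM reached 6. The largest were rpl-39 (0.97), rps-28 (0.75), rpl-11.1 (0.70), rpl-29 (0.67) and rpl-41 (0.66). The smallest were rpl-21 (0.19), rpl-6 (0.19), rpl-35 (0.19), rps-1 (0.20) and rpl-22 (0.21). rpl-21 illustrates the steady genes, with 1367 to 1885 CPM in wild type with DMSO, 1521 to 1701 with F17, 1419 to 1936 in nhr-131 with DMSO and 1172 to 1758 with F17.

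Shorter genes varied more. Across the 68 tested genes with a length, Spearman's rho between exon length and SD was -0.65. For the 1789 other genes it was -0.37. Both describe genes that share the same 20 libraries. The 8 genes of at most 320 nt (rpl-29, rpl-37, rpl-38, rpl-39, rpl-43, rps-21, rps-28 and rps-29) had a median SD of 0.64, the 11 of up to 460 nt 0.37, the 22 of up to 600 nt 0.29 and the 27 longer ones 0.26. Medians of the other genes in the same classes were 0.55 (4 genes), 0.67 (20), 0.36 (39) and 0.25 (1726).

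Short and long genes deviated by different amounts in many libraries. In library a of wild type with F17 the median deviation from the group mean was 1.35 (log2) for the 8 shortest and 0.43 for the 27 longest, and in library a of nhr-131 with DMSO it was 1.32 and 0.55. Other genes of at most 320 nt deviated by 0.66 and 1.06 there, and other genes over 600 nt by -0.031 and 0.14. Library a of nhr-131 with F17 had the short genes at 0.59 and the long ones at -0.31. Downward, the short genes stood at -0.77 against -0.11 in library d of wild type with F17 and at -0.75 against -0.19 in library d of nhr-131 with DMSO. Wild type with DMSO, which holds neither high library, showed the same kind of gap, with 0.31 against -0.20 in library a, 0.51 against 0.14 in b and -0.33 against 0.20 in e. With the length trend of the other genes in each library taken out as an offset, chosen after seeing the data, the 5 median log2 fold changes were 0.034, -0.11, -0.0012, -0.15 and -0.13 (F17 in wild type, F17 in nhr-131, genotype in DMSO, genotype in F17, difference), and 0 of 69 were called in each. All genes were called at 1.03%, 0.5%, 0.029%, 1.65% and 0.232% in the same order. Estimates were positive for 46, 7, 34, 5 and 12 of 69, against 45.3%, 49.8%, 43.6%, 46.2% and 51.4% of all genes.

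A few genes did not follow the others. In library a of wild type with F17, 66 of 69 lay above their group mean, and the exceptions were rpl-37, rps-30 and rpl-35. rpl-37 had 38.6, 68.9, 62.2, 65.6 and 61.6 CPM in that group, so library a was its lowest. In nhr-131 with DMSO it had 103, 53.4, 61.6, 57.2 and 58.8 CPM, with library a highest. On the opposite strand of rpl-37 lies pitp-1, and 9 other ribosomal protein genes, rpl-24.2 and rpl-39 among them, also overlap a gene on the other strand. The library kit keeps the strand, but no source used here says how the counting treated it, and reads of such partners cannot be told apart.

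**Figure D4:**
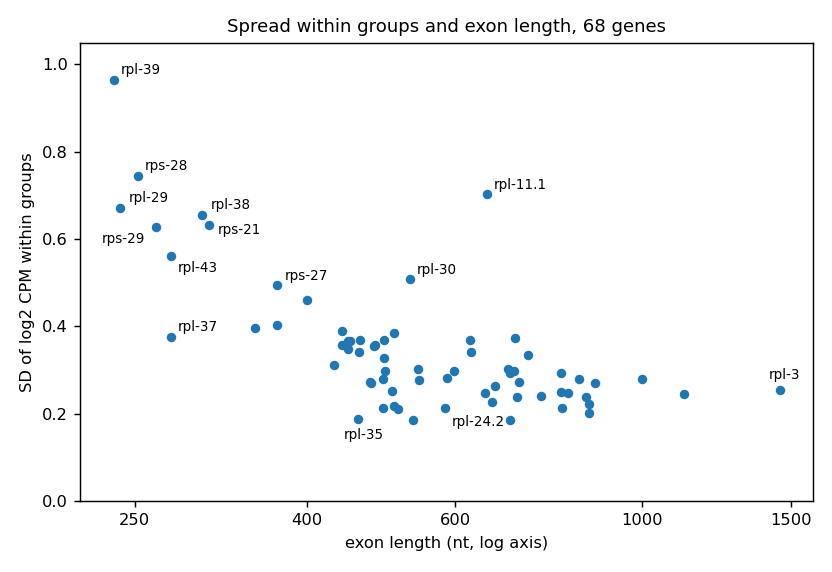
Each point is a tested ribosomal protein gene, with its exon length in nt on a log axis and the SD of its log2 CPM within groups. The 8 genes of at most 320 nt lie between 0.38 and 0.97, while of the genes over 600 nt only rpl-11.1 (0.70) exceeds 0.38.

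Paralog pairs differed in how much each copy gave. rpl-24.1 encodes the large-subunit protein, and rpl-24.2 is the counterpart of a human factor of large-subunit assembly. rpl-24.2 gave 1.76% to 2.99% of the summed CPM of the pair in wild type with DMSO, 1.35% to 2.58% with F17, 1.72% to 3.33% in nhr-131 with DMSO and 2.21% to 3.604% with F17. rpl-25.1 and rpl-25.2, for a protein at the mouth of the exit tunnel, were of similar level, with 1266 ± 320 and 905 ± 223 CPM per kilobase over the 20 libraries. rpl-11.2 had 1671 ± 381 CPM per kilobase against 278 ± 152 for rpl-11.1. Counts of close paralogs are uncertain where reads match both copies, and no source used here states the rule for such reads.

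The share of rpl-11.1 in its pair varied widely within every group. It was 20.9%, 5.69%, 27.1%, 7.06% and 6.02% in libraries a to e of wild type with DMSO and 23.02%, 19.1%, 12.7%, 24.5% and 9.76% with F17. In nhr-131 it was 6.18%, 6.77%, 20.3%, 13.0035% and 8.87% with DMSO and 11.7%, 7.67%, 22.7%, 5.93% and 8.20% with F17. The groups overlapped, with means of 13.4% ± 9.98, 17.8% ± 6.42, 11.02% ± 5.83 and 11.24% ± 6.73 (SD, n = 5). All 6 libraries low in adult-onset genes lay between 20.3% and 27.1%, and the other 14 between 5.69% and 19.1%.

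rpl-25.2 showed the same split between the 6 libraries and the other 14, on a smaller scale. Its share of the pair was 47.5%, 37.04%, 49.6%, 38.2% and 35.3% in wild type with DMSO and 49.0%, 41.9%, 40.4%, 50.6% and 36.9% with F17. In nhr-131 with DMSO it was 39.2%, 40.01%, 47.3%, 39.7% and 36.5%, and with F17 43.8%, 41.2%, 51.5%, 37.2% and 36.7%. The 6 libraries lay between 47.3% and 51.5% and the other 14 between 35.3% and 43.8%. These 6 are not a group of the study, and no test was made between them and the rest.

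Over the 20 libraries the germline markers moved with the share of rpl-11.1, but the 6 libraries differed in other marker lists too. Pharynx markers summed to 610 to 1304 CPM in the 6 and 107 to 497 CPM in the other 14. Hypodermis markers summed to 1420 to 2967 CPM in the 6 and 4790 to 8289 CPM in the 14. Both lists kept the 6 and the 14 apart, while the germline sums overlapped. Among the 14, the share of rpl-25.2 was highest (43.8%) at a germline sum of 284 CPM, against 41.9% at 685 CPM. The sperm markers were not raised in the 6 libraries, though among the other 14 they were highest where the rpl-11.1 share was highest. The 10 germline markers, all detected, summed to 641 to 1013 CPM in the 6 libraries and 82.4 to 685 CPM in the other 14, and library b of wild type with F17, the highest of the 14 at 685 CPM, also had the highest rpl-11.1 share among them. By group the sums ran from 82.4 to 1013 CPM in wild type with DMSO, 300.2 to 983 with F17, 112 to 641 in nhr-131 with DMSO and 177 to 876 with F17. The 34 sperm genes, 30 of them tested, summed to 45.1 to 246 CPM in the 6 libraries and 143 to 701 CPM in the other 14, ranges that overlap. The 9 oocyte genes summed to 87.0 to 161 CPM in the 6 and 37.9 to 281 CPM in the 14. Of 10 germline markers, 30 sperm genes and 9 oocyte genes, edgeR called 0 in each of the 5 comparisons. For F17 in wild type, 11 of the 30 sperm genes (median log2 fold change 0.99) and 6 of the 9 oocyte genes (1.055) had an unadjusted p under 0.05, against 7.6% of all genes. For the germline markers it was 0 of 10 in each comparison, with a median log2 fold change of 0.64 for F17 in wild type and -0.91 for nhr-131 against wild type in F17. The part of the germline, its cell types, other tissues or age in the levels of rpl-11.1 was not tested.

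**Figure D5:**
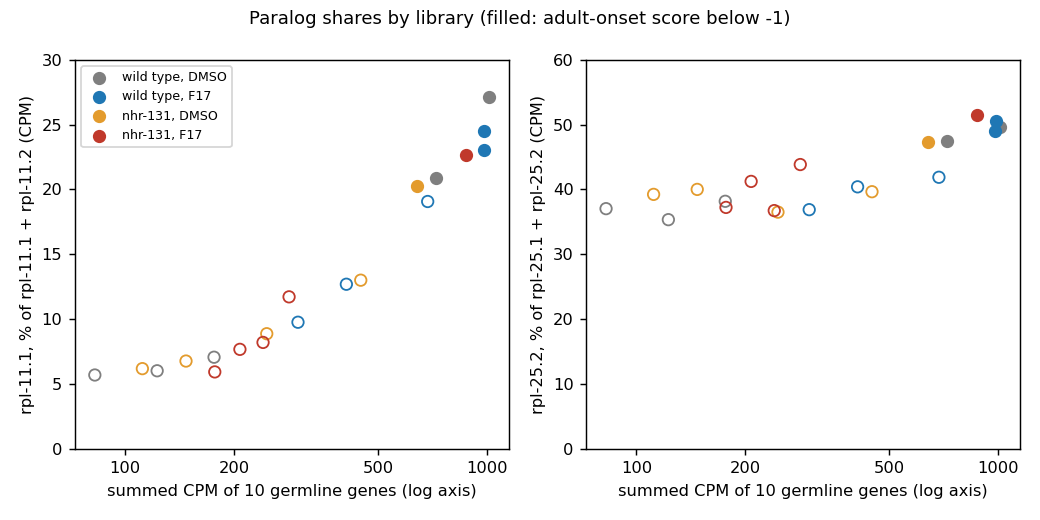
Each point is a library, coloured by group and filled where the mean z-score of the 7 adult-onset genes was below -1; the x axis is the summed CPM of 10 germline marker genes (log axis) and the y axes are the shares of rpl-11.1 (left) and rpl-25.2 (right) in the summed CPM of their pair, in percent. The filled points lie at 20.3% to 27.1% and 47.3% to 51.5%, above all open points, and rpl-11.1 climbs with the germline sum among open points as well.

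Estimates of the pairs changed when these 6 libraries were left out, a setting chosen after seeing the data that leaves 3 or 4 libraries in a group. rpl-11.1 was then higher with F17 in wild type (0.94, adjusted p = 0.0312) and lower in nhr-131 than in wild type in F17 (-0.79, adjusted p = 0.0413), 1 of 69 in each case, where 6.71% and 7.55% of all genes were called. In the other comparisons 0 of 69 were called, against 1.04% for F17 in nhr-131, 0.0815% for genotype in DMSO and 0.859% for the difference. Over all 69, estimates were positive for 4 (45.3% of all genes) for F17 in wild type, 3 (45.1%) for F17 in nhr-131, 43 (52.9%) and 40 (47.2%) for genotype in DMSO and in F17, and 31 (49.8%) for the difference. For rpl-11.1 the difference of F17 effects was -1.19 (SE 0.31, adjusted p = 0.0884). rpl-11.2 had -0.33 (SE 0.21) and 0.083 (SE 0.20) in the first pair of comparisons. The germline sums of the remaining libraries were 82.4, 176 and 123 CPM in wild type with DMSO and 685, 408 and 300.2 CPM with F17. In nhr-131 with F17 they were 284, 207, 177 and 240 CPM, all below the wild-type libraries with F17. Over all 69 genes the medians without the 6 libraries were -0.20 for F17 in wild type and -0.21 for F17 in nhr-131. For genotype in DMSO and in F17 they were 0.042 and 0.012, and for the difference -0.0057. With all 20 libraries these medians were 0.087, -0.17, 0.12, -0.15 and -0.27 in the same order. With the adult-onset score (the mean z-score of the 7 adult-onset genes in a library) as a covariate and all 20 libraries, rpl-24.2 was higher in nhr-131 than in wild type in F17 (0.50, adjusted p = 0.00716), again 1 of 69, where 5.97% of all genes were called. The covariate left 0 of 69 called elsewhere, against 2.17%, 0.841%, 0.0652% and 0.478% of all genes for F17 in wild type, F17 in nhr-131, genotype in DMSO and the difference.

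In C. elegans the transcripts of the genes for L3, L7a and L12 (rpl-3, rpl-7A and rpl-12) are known to be spliced in part to forms that are degraded, and their levels per gene are given here with that of rpl-10. rpl-3 had 3956 to 5231 CPM in wild type with DMSO, 3732 to 6328 with F17, 4170 to 7651 in nhr-131 with DMSO and 3950 to 4814 with F17. Its log2 fold changes with F17 were 0.055 (SE 0.17) in wild type and -0.18 (SE 0.17) in nhr-131. rpl-10, whose protein joins the large subunit late in assembly, stood at 0.15 (SE 0.19) and -0.24 (SE 0.19), rpl-12, of the stalk base, at 0.056 and -0.22 (SE 0.19 each), and rpl-7A at 0.084 and -0.12 (SE 0.16 each). Counts per gene do not separate the spliced forms.

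Other genes of the translation machinery were also nearly without calls. edgeR called 0 of 60 mitochondrial ribosomal protein genes in all 5 comparisons. At an unadjusted p under 0.05 there were 2, 0, 0, 6 and 12 of the 60 for F17 in wild type, F17 in nhr-131, the difference, genotype in DMSO and genotype in F17, against 7.6%, 3.07%, 3.2%, 4.17% and 15% of all genes. Their medians for genotype in DMSO and in F17 were 0.14 and 0.15, beside 0.12 and -0.15 for the cytosolic ribosome. Calls were also 0 of 8 for elongation factors, 0 of 19 for initiation factors, 0 of 31 for aminoacyl-tRNA synthetases, 0 of 11 for growth signalling and 0 of 3 for other ribosome genes, in each comparison.

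Of 16 genes of the nucleolus and ribosome assembly, 0 were called in each comparison and 6 had an unadjusted p under 0.05 for genotype in F17 (15% of all genes), with a median of 0.32. Among 8 subunits of RNA polymerases I and III, which make ribosomal and transfer RNA, rpc-2 was higher in nhr-131 than in wild type in F17 (0.62, SE 0.098, adjusted p = 0.0015), where 1.28% of all genes were called. The other 7 did not pass, and 0 of 8 passed in the other 4 comparisons. In the 5 comparisons, in the order above, an unadjusted p under 0.05 was reached by 0, 1, 0, 1 and 2 initiation factors, 5, 0, 3, 1 and 9 synthetases, 0, 1, 0, 1 and 3 growth genes, 0, 0, 0, 1 and 6 assembly genes and 0, 0, 1, 2 and 1 polymerase subunits, beside 7.6%, 3.07%, 3.2%, 4.17% and 15% of all genes. No elongation factor and none of the 3 other ribosome genes reached it.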

How the data were processed

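Counts of reads per gene were deposited by the authors as 1 table of 28301 genes and 20 libraries. TopHat2 and HTSeq are named per the submitters' processing notes; their versions, the genome build, the annotation and the strand setting of the counting were not given in the sources used here. The counts were analysed as deposited in R 4.3.3.

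Genes were kept with edgeR 4.0.16 (filterByExpr, minimum count 10; 13795 genes). Libraries were scaled by TMM. Robust quasi-likelihood F-tests compared 4 group means in 1 model over 20 libraries, with 16 residual degrees of freedom and Benjamini-Hochberg adjustment over all genes tested at 0.05. The SE was taken as the absolute log2 fold change over the root of F. The code was tested on simulated data. Alternatives were limma-voom (limma 3.58.1), DESeq2 1.42.0, other scalings, filters and covariates, and leaving out each library.

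Named genes were, per comparison, all called and the 5 highest and 5 lowest estimates, the 5 highest and 5 lowest levels and spreads, members of numbered pairs, untested members and 4 genes (rpl-3, rpl-7A, rpl-10 and rpl-12) listed for regulated splicing, of which rpl-10 is not described as such here. The members and lists were chosen with earlier results of these data known. Exon lengths, neighbours and chromosomes came from Ensembl 115 (WBcel235), matched by symbol, and names may differ between releases. The closest pair of libraries within a group differed beyond sampling noise (chi-square per degree of freedom 20.9), so none was counted as a duplicate.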

Additional observations from a re-analysis of the deposited data

Results flagged for a closer look

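Values were singled out where the highest or lowest of the 5 libraries of a group lay apart, that is where its gap to the nearest other library exceeded 0.71 of the group's range (Dixon's 95% value for 5). Of 152 values from the named ribosomal protein genes and the shares, 43 met this, where chance gives about 1 in 20. The genes are not independent, since they move together between libraries. Many were also named for their extreme estimates in these same data, which the high libraries a shift. The rate of 1 in 20 is therefore no fair measure for them.

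Library a of wild type with F17 was the highest of its group in the share of counts outside ribosomal RNA, with 13.8%. It also stood apart in small-subunit genes, with 858 CPM for rps-21, 424 for rps-28, 943 for rps-27, 384 for rps-29, 875 for rps-16, 2799 for rps-14, 1496 for rps-24 and 1103 for rps-15. Among large-subunit genes it held 1701 CPM for rpl-21, 704 for rpl-43, 1313 for rpl-30, 2432 for rpl-24.1, 818 for rpl-25.2 and 2175 for rpl-7A. The same was found for rpl-10 (2724 CPM), rpl-12 (2058), rpl-17 (3222) and rpl-7 (3663). For rpl-37 the same library was the lowest of the group, with 38.6 CPM.

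Library a of nhr-131 with DMSO stood apart upward in small-subunit genes, with 730 CPM for rps-21, 1094 for rps-27, 300.1 for rps-29, 1115 for rps-16, 3530 for rps-14, 1605 for rps-24, 3957 for rps-1 and 1117 for rps-19. In large-subunit genes it held 103 CPM for rpl-37, 721 for rpl-43, 1090 for rpl-30, 2431 for rpl-24.1, 1060 for rpl-25.1, 685 for rpl-25.2 and 7651 for rpl-3. It was also apart for rpl-7A (2081 CPM), rpl-10 (2982), rpl-12 (2316), rpl-17 (3512) and rpl-7 (3998).

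Outside these libraries, b of wild type with DMSO was apart for rps-24 (1160 CPM). Library c of nhr-131 with F17, one of the 6 low in adult-onset genes, was apart for rpl-24.2 (50.4 CPM) and rpl-11.1 (278 CPM).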

How the results depend on the processing

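Of the 69 ribosomal protein genes 0 were called in every comparison under 10 of 11 other settings (scaling, filter, tool, block, covariate, libraries), and whichever single library was left out. The exception was 1 called gene for genotype in F17 with the adult-onset score as a covariate; without the 6 libraries low in adult-onset genes, chosen after seeing the data, 1 was called for F17 in wild type and 1 for genotype in F17. Without the 2 libraries highest in these genes, also chosen after seeing the data, the median difference was 0.15. With ribosomal RNA genes left out of the totals the shares were 9.58% in wild type with DMSO and 10.3% with F17. When 1 library was left out, the medians ran from -0.064 to 0.14 (F17 in wild type), -0.24 to 0.046 (F17 in nhr-131), -0.13 to 0.18 (genotype in DMSO), -0.21 to -0.00069 (genotype in F17) and -0.34 to -0.046 (difference). The cause of these moves was not tested. Of 832 values under other settings 759 counted as unchanged and 64 as reversed, and of 1220 with 1 library left out 1147 and 73. A gene's estimate counted as unchanged if its direction and call held, and a count of calls if it stayed at 0. A median did so if it moved by less than 0.287, whatever its sign, and a share if it moved by less than the SD of its group. Medians that changed sign, such as that for F17 in wild type, are thus among the unchanged. The depth limits rpl-42, with at most 14 counts, and changes smaller than the intervals given.

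The labels do not say whether column letters pair the libraries. Of 30 correlations of same-letter deviations 17 were over 0.1 and all ran from -0.68 to 0.82, which does not decide it. Library c had the lowest ribosomal RNA share of its group in all 4 groups (2.91%, 4.66%, 3.75% and 2.24%). The median deviation of the 8 shortest genes was positive in every library a (0.31, 1.35, 1.32 and 0.59). It was negative in every library e (-0.33, -0.56, -0.64 and -0.22). With the letter as a replicate block 0 were called, and rpl-29 reversed to 0.11 for F17 in nhr-131. The medians were then 0.068, -0.13, 0.068, -0.13 and -0.20 (F17 in wild type, F17 in nhr-131, genotype in DMSO, genotype in F17, difference).

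Other reversals of log2 fold changes follow. Upper-quartile factors gave rpl-29 0.0072 (F17 in nhr-131), rpl-35 0.0033 (difference) and rpl-2 -0.017 (genotype in F17). No filter gave rpl-29 0.00064 (F17 in nhr-131), rps-13 0.0060, rpl-2 0.011 and rpl-35 0.031 (difference), rps-19 0.013 and rps-15 0.015 (genotype in F17). The strict filter gave rpl-2 -0.0040 (genotype in F17), and limma-voom rpl-29 0.094 (F17 in nhr-131). The covariate gave rpl-11.1 0.19 (genotype in DMSO) and rpl-2 -0.045 (genotype in F17). The length trend gave rps-24 0.026 and rpl-29 0.12 (F17 in nhr-131), rps-13 0.12, rpl-2 0.0052 and rpl-35 0.13 (difference), rps-19 0.014, rps-15 0.015 and rpl-2 -0.019 (genotype in F17).

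Without the 6 libraries, rps-21 was -0.061 (F17 in wild type), rpl-29 0.051 (F17 in nhr-131), rps-13 0.11, rpl-2 0.16 and rpl-35 0.12 (difference), rpl-11.1 0.40 (genotype in DMSO), and rps-21 0.011, rpl-30 0.086, rpl-43 0.026, rps-19 0.024 and rps-15 0.079 (genotype in F17). Without the 2 libraries, F17 in wild type gave rpl-37 0.017, rps-21 -0.12, rpl-29 -0.0046, rps-28 -0.12 and rpl-39 -0.053. F17 in nhr-131 gave rps-27 0.14, rps-21 0.17, rps-29 0.10, rps-16 0.039, rps-14 0.067, rps-24 0.17, rps-1 0.085 and rpl-29 0.44. The difference gave rpl-39 0.46, rps-21 0.29, rps-29 0.24, rps-28 0.36, rps-13 0.21, rpl-2 0.14 and rpl-35 0.12. Genotype gave rpl-43 -0.21, rps-21 -0.19, rpl-29 -0.13, rps-28 -0.094 and rpl-39 -0.092 in DMSO, and rps-29 0.073, rps-21 0.11, rpl-30 0.11, rpl-43 0.067, rps-19 0.039 and rps-15 0.061 in F17.

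With 1 library left out, 32 named results reversed at least once. For F17 in wild type the ranges were rpl-37 -0.16 to 0.039, rpl-39 -0.031 to 0.98, rps-21 -0.10 to 0.66 and rps-28 -0.094 to 0.71. For F17 in nhr-131 they were rpl-29 -0.29 to 0.43, rps-1 -0.10 to 0.077, rps-14 -0.42 to 0.059, rps-16 -0.43 to 0.031, rps-21 -0.49 to 0.16, rps-24 -0.15 to 0.16, rps-27 -0.46 to 0.13 and rps-29 -0.48 to 0.096. The difference had rpl-2 -0.11 to 0.078, rpl-35 -0.065 to 0.10 and rps-13 -0.095 to 0.14. Genotype in DMSO had rpl-11.1 -0.45 to 0.15, rpl-21 -0.11 to 0.042, rpl-29 -0.12 to 0.51, rpl-35 -0.13 to 0.043, rpl-39 -0.090 to 0.76, rpl-43 -0.21 to 0.45, rps-13 -0.19 to 0.051, rps-21 -0.18 to 0.49, rps-28 -0.091 to 0.58 and rps-30 -0.16 to 0.060. Genotype in F17 had rpl-2 -0.052 to 0.12, rpl-30 -0.51 to 0.088, rpl-43 -0.51 to 0.041, rps-15 -0.063 to 0.036, rps-19 -0.086 to 0.022, rps-21 -0.66 to 0.080 and rps-29 -0.69 to 0.047.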
